A study of Mus musculus with 17 samples.

Results

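The genes described here are 50 DNA repair genes, taken by symbol from a set of gene names. The names were chosen for their role in DNA repair, with earlier results of these data known. All 50 were found among the 41388 genes counted in each library. By textbook role they comprised 19 genes of homologous recombination, 12 of the Fanconi pathway, 4 checkpoint kinases, 3 mismatch repair genes, 4 of nucleotide excision repair, 3 of base excision and single-strand break repair and 5 of end joining. The question was how the 31 recombination and Fanconi genes compared with the 15 mismatch, excision and end-joining genes when bone marrow macrophages received RANKL and when Bap1 was deleted.

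Bone marrow macrophages (BMMs) were grown from mouse marrow with M-CSF. Preosteoclasts (preOCs) were the same kind of culture after 24 h with 100 ng/ml RANKL, the cytokine that drives osteoclast formation. Bap1flox mice carry loxP sites on both Bap1 alleles and no Cre, and Bap1LysM mice carry the same loxP alleles with Cre expressed from the lysozyme M gene, Lyz2, which is active in myeloid cells. The preOCs came from male mice of 20 weeks, and the age of the BMM donors was not given. RNA-seq was analysed from 3 Bap1flox and 3 Bap1LysM BMM libraries and from 6 Bap1flox and 5 Bap1LysM preOC libraries. The Bap1LysM preOC libraries carry the numbers 1, 2, 4, 5 and 6. Since only the Bap1LysM cells carry Cre, an effect of Cre or of the altered Lyz2 allele and an effect of Bap1 deletion cannot be told apart.

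Homologous recombination repairs broken DNA by copying the sister chromatid, and so works mainly in cells that are replicating their genome. BRCA1 with its partner BARD1 promotes the cutting back of DNA ends, and BRCA2 and PALB2 load the recombinase onto the resulting single strand. The Fanconi proteins find and unhook crosslinks between the strands: a core complex attaches ubiquitin to FANCD2 and FANCI, and USP1 removes it. Mismatch repair corrects replication errors, excision repair removes damaged bases or bulky lesions, and end joining ligates broken ends without a template. BAP1, a deubiquitinase of histone H2A, was named for its association with BRCA1.

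Total counts per library ran from 37967542 to 61369441. Bap1 itself was at 82.1 to 84.4 CPM (counts scaled to the library total) in Bap1flox BMMs, 74.8 to 77.1 in Bap1LysM BMMs, 70.3 to 97.1 in Bap1flox preOCs and 55.9 to 87.7 in Bap1LysM preOCs. Those counts cover the whole gene and do not separate a deleted exon. Lyz2 stood at 0.146% to 0.436% of the Bap1flox mean of its stage in 6 of the 8 Bap1LysM libraries. In the other Bap1LysM libraries, both numbered 1, Lyz2 was at 42.8% (BMM library 1) and at 75.1% (preOC library 1). The study describes the mice as carrying LysM-Cre on a single allele, which leaves the other Lyz2 allele intact, so the 6 libraries with almost no Lyz2 go against that description. Because the libraries numbered 1 differ from the other 6, results are also given without them, and which libraries have the described genotype was not tested. Among preOCs, mitochondrially encoded genes took 0.481% to 1.074% of counts in libraries 1 to 3 and 2.364% to 5.264% in libraries 4 to 6. The genotypes were therefore also compared within each of these library sets. Osteoclast markers, including Ctsk and Acp5, summed to 240 to 386 CPM in BMMs and 6060 to 16400 CPM in preOCs, and macrophage markers were present in all libraries. Between genotypes in preOCs, 2 of 7 macrophage markers were higher in Bap1LysM, with 7.12% of all genes tested. The 2 were Csf1r (log2 0.41, edgeR adjusted p = 0.022) and Mertk (log2 1.26, edgeR adjusted p = 0.016). Of 10 osteoclast markers Dcstamp was lower (log2 -0.69, edgeR adjusted p = 0.021) and the rest did not pass, with 8 of the 10 estimates positive and a median of 0.23.

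Promoters are shown for 5 members that were lower in Bap1LysM preOCs and whose start region carries either of 2 sequence elements associated with cell cycle genes. E2F sites bind the E2F factors that switch on genes at the start of S phase, and CCAAT boxes bind the factor NF-Y. RefSeq start sites of GRCm38.p6 were found for 39 of the 50 members. Windows of 250 bases before to 50 after each start were searched on both strands for the E2F letters TTTCCCGC, TTTGGCGC, TTTCGCGC and TTTGCCGC, for CCAAT, and for the CHR letters TTTGAA and TTTAAA of genes active late in the cycle. None of these motifs holds another whole, but the E2F letters can share bases with each other. Sequences run 5′ to 3′ on the gene's strand from 250 bases before the start to 10 after it, so each holds upstream sequence and the first bases of exon 1. The windows are chr11:101551946-101552205 (minus strand) for Brca1, chr5:150522371-150522630 (plus strand) for Brca2, chr1:71102963-71103222 (minus strand) for Bard1, chr11:87404945-87405204 (minus strand) for Rad51c and chr4:43010292-43010551 (minus strand) for Fancg. Capitals mark the CCAAT letters in Brca1 and the E2F letters, in either orientation, in the other 4.
Brca1: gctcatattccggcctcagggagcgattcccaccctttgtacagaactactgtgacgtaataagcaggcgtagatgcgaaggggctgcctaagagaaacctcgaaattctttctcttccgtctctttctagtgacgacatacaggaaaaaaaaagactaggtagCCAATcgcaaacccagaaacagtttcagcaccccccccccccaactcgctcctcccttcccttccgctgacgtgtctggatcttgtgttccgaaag
Brca2: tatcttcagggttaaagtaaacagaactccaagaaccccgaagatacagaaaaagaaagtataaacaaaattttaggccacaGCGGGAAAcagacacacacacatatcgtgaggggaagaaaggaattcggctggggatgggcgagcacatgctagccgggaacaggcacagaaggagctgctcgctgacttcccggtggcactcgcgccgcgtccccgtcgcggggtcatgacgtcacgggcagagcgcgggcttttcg
Bard1: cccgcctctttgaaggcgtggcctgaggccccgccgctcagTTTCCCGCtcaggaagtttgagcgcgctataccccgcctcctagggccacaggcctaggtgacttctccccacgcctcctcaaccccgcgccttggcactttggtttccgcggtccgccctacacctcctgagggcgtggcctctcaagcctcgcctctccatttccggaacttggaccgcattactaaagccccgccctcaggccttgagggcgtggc
Rad51c: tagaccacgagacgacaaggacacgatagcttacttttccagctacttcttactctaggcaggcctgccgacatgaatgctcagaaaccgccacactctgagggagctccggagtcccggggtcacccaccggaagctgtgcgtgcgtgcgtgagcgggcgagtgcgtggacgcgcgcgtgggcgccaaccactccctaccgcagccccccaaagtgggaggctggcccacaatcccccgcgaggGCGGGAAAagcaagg
Fancg: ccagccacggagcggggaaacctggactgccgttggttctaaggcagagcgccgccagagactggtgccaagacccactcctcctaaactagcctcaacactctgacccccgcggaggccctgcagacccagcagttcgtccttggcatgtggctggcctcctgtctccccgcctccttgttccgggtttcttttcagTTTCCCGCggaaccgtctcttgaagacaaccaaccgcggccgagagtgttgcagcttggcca

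The E2F letters TTTCCCGC began at -209 in Bard1 and -52 in Fancg, and read on the opposite strand at -168 in Brca2 and -5 in Rad51c. Brca1 held no E2F match in its window and had CCAAT at -86. At least 1 E2F match was present in 8 of the 39 member promoters (20.5%) and in 2.8% of all 18681 promoters searched. By role, it was present in 4 of 22 recombination and Fanconi promoters (18.2%) and in 3 of 13 mismatch, excision and end-joining promoters (23.1%). The table's start lay 28534 bases from the annotated gene start for Xrcc6, 1 of these 3, and 65533 bases for Fancc, while the other 37 were within 1000 bases. Without those 2 genes the shares were 4 of 21 (19.0%) and 2 of 12 (16.7%), so their order rests on a single promoter. Of the 11 lower members with a promoter in the table, 5 held E2F letters (45.5%) and 4 CCAAT (36.4%). CCAAT stood in 59.0% of member promoters against 38.3% of all, and the CHR letters in 17.9% against 25.1%. A match describes letters in the window and not a bound site.

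Per length, the most abundant members were Parp1, Xrcc1 and Lig1. Parp1, which marks strand breaks with poly(ADP-ribose), had a mean of 40.6 RPKM over all 17 libraries (CPM per kilobase, after TMM scaling between libraries). Xrcc1, the scaffold that PARP1 recruits, was at 21.1 RPKM and Lig1, the ligase of replication and excision repair, at 20.4 RPKM. The most abundant of the Fanconi genes was Usp1 at 19.4 RPKM, of the checkpoint kinases Chek2 at 12, of the recombination genes Rad50 at 10.5, of the mismatch genes Msh6 at 8.60, of the nucleotide excision genes Xpc at 6.44 and of the end-joining genes Xrcc6 at 5.41. Brca1 ranked 20 of 50 with 4.02 RPKM, and Rad51c was last with 0.504 RPKM. Means of neighbouring ranks often lay closer together than the spread between libraries, so this order is approximate. It pools all 17 libraries and differed between groups. Xpc, for example, was at 11.8 RPKM in Bap1flox BMMs and at 3.83 in Bap1flox preOCs, where Ercc1 stood at 5.54.

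RANKL raised most of these genes in Bap1flox cells. In libraries 1 to 3, 37 of 50 members were higher in preOCs than in BMMs and 5 were lower at an adjusted p under 0.05 (edgeR quasi-likelihood test). Across all 13412 genes tested, 31.7% were higher and 32.9% lower (64.6% in all). BMM and preOC ranges did not overlap for 43 of 50 members, with 71.3% of all genes tested. The recombination and Fanconi genes had 25 of 31 higher, 1 lower and a median log2 fold change of 0.99, while the mismatch, excision and end-joining genes had 9 of 15 higher, 3 lower and a median of 0.42. The median over all genes was -0.05.

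Chek1, the kinase that stops the cycle when replication stalls, rose most on the log2 scale. Its level was 1.90, 3.54 and 2.48 TMM-scaled CPM in Bap1flox BMMs and 14.6, 12.1 and 11.7 in preOCs. All preOC libraries lay above all BMM libraries, and edgeR gave a log2 difference of 2.27 with a standard error (SE) of 0.24 and an adjusted p of 0.00019. Exo1, an exonuclease that cuts back DNA ends, went from 2.25, 4.63 and 4.49 CPM to 20.4, 15.6 and 15.8, or 2.18 on the log2 scale (SE 0.29, edgeR adjusted p = 0.00052). Brca1 was at 10.6, 13.8 and 11.6 CPM in BMMs and at 46.5, 43.6 and 45.2 in preOCs. That is a 3.73-fold rise (log2 1.90, SE 0.11, edgeR adjusted p = 1.7e-05). Rad54l, a motor protein of strand exchange, went from 7.71, 13 and 9.97 to 41.3, 36.7 and 38.2 CPM (log2 1.91, SE 0.19, edgeR adjusted p = 0.00013). Part of its exonic sequence, 15.4%, overlaps Lrrc41 on the opposite strand, and whether strand was used in counting was not stated.

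Xrcc5, the larger Ku subunit of end joining, was low in BMMs at 0.231, 1.85 and 2.22 CPM and stood at 4.87, 5.77 and 5.95 CPM in preOCs. Its log2 fold change of 1.94 had the largest standard error of the members, 0.65, and 1 BMM library was far below the others (edgeR adjusted p = 0.033). With each library left out in turn Xrcc5 passed in 2 of 6 fits, with log2 fold changes from 1.47 to 2.46. Bard1 rose from 4.42, 7.19 and 5.36 to 20.7, 16.7 and 16.0 CPM (log2 1.64, SE 0.20, edgeR adjusted p = 0.00038). The other Fanconi genes that passed included Fancb (log2 1.67), Fanca (1.56), Fancd2 (1.51), Brip1 (1.31), Fanci (1.13) and Usp1 (1.10).

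The 4 nucleotide excision genes among the members went the other way. Genes of that pathway outside the members moved in both directions in Bap1flox libraries 1 to 3. For example, Gtf2h3 rose from 8.64, 7.36 and 8.96 CPM in BMMs to 17.4, 19.9 and 20.7 in preOCs. Uvssa fell from 22.0, 13.9 and 16.6 to 7.81, 10.9 and 10.8 CPM. Xpc, which finds bulky lesions, was at 72.6, 57.8 and 63.8 CPM in Bap1flox BMMs and at 19.9, 20.1 and 19.8 in preOCs. The groups were far apart, a 3.27-fold fall (log2 -1.71, SE 0.09, edgeR adjusted p = 1.2e-05). Xpa, which verifies the lesion, went from 17, 16.0 and 15.5 to 6.93, 7.26 and 6.82 CPM (log2 -1.22, SE 0.09, edgeR adjusted p = 3.9e-05). Ercc1, a subunit of the nuclease that cuts on the 5′ side of the lesion, fell by 0.28 on the log2 scale, and its partner Ercc4 had a log2 fold change of -0.15 (SE 0.08, edgeR adjusted p = 0.14). So 3 of the 4 nucleotide excision members fell and 0 rose, with 32.9% of all genes lower. With each library left out in turn, Ercc1 passed in 2 of 6 fits. Outside this group, the checkpoint kinase Chek2 went from 25.5, 24.4 and 21.7 to 18.6, 17.7 and 18.3 CPM (log2 -0.40, SE 0.08, edgeR adjusted p = 0.004). Fance, a core complex subunit, went from 30.2, 30.6 and 30.8 to 24.0, 23.6 and 23.3 CPM (log2 -0.38, SE 0.06, edgeR adjusted p = 0.0015). These 2 genes had small differences but little spread between libraries.

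The 8 members that did not pass were Rbbp8, Rad51d, Mus81 and Xrcc3 of recombination, Fancg, Ercc4, Xrcc1 and Lig4. Their log2 fold changes lay between -0.15 and 0.17. Of 48 proliferation genes that are not members, 48 rose, with a median log2 fold change of 1.24.

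**Figure D1:**
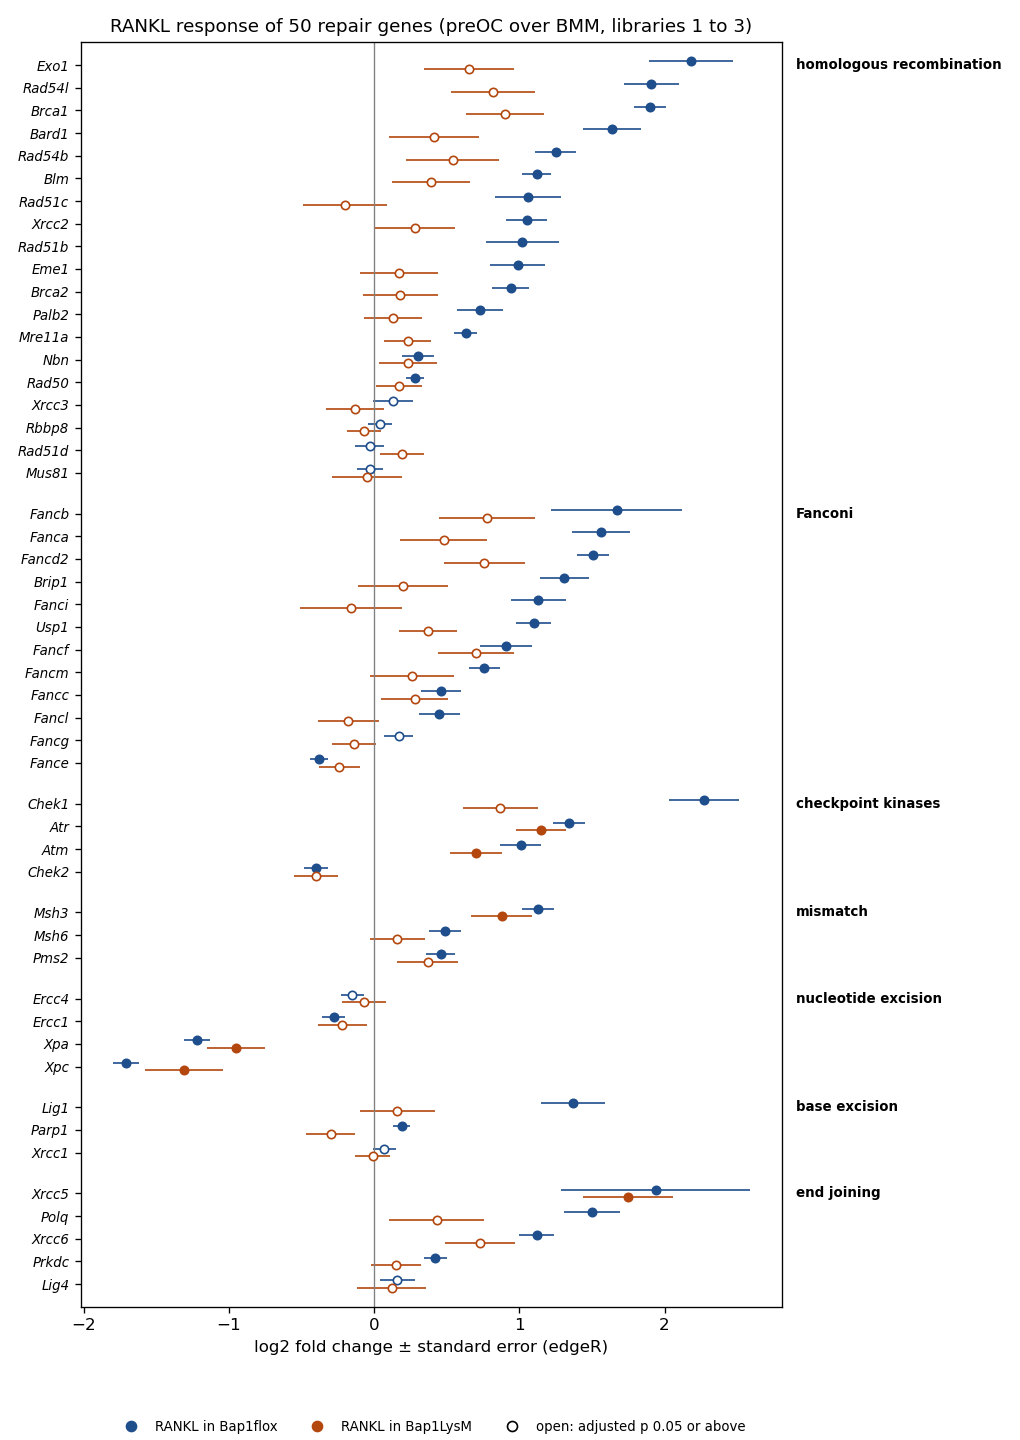
Log2 fold change of each member after RANKL (horizontal axis, ± standard error from edgeR; preOC over BMM) in Bap1flox (blue) and Bap1LysM (orange), grouped by role, with filled points for an adjusted p under 0.05. In Bap1flox 37 points are filled to the right of 0 and 5 to the left, against 4 and 2 in Bap1LysM.

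In Bap1LysM cells the same comparison had 3 BMM and 2 preOC libraries, and 49 members passed the filter on low counts (Rad51b did not). Here 4 members were higher and 2 lower, 6 of 49, where 19.6% of all 12998 genes tested passed (11.4% higher and 8.20% lower). Ranges did not overlap for 19 of 49 members, with 56.1% of all genes tested. Those that rose were the damage kinases Atr (log2 1.15) and Atm (0.70), the mismatch gene Msh3 (0.88) and Xrcc5 (1.75), and those that fell were Xpc (-1.31) and Xpa (-0.95). Of 30 recombination and Fanconi genes tested 0 passed in edgeR. At an unadjusted p under 0.05 there were 4, with 4804 of all 12998 genes. The 30 genes had a median log2 fold change of 0.23 and values from -0.24 to 0.90. DESeq2 passed 2 of them and 30.7% of all genes. The median standard error over members was 0.24, against 0.12 in Bap1flox. Without the libraries numbered 1, only preOC library 2 remained after RANKL, so calls from that fit are not given. Calls over all genes rested on single BMM libraries. Leaving out BMM library 2 or 3 gave 0 members and 0.492% or 1.27% of all genes. Leaving out BMM library 1 gave 1 member and 8.95%. Leaving out a preOC library leaves 1 in that group, so calls from those fits are not given. The replicate number as a block gave 4 higher and 2 lower members and 21.2% of all genes, with Brca1 and Rad54l among the higher.

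Brca1 was at 19.4, 29.6 and 16.1 CPM in Bap1LysM BMMs and at 37.2 and 43.5 CPM in preOC libraries 1 and 2. The ranges did not overlap, but the log2 fold change of 0.90 (SE 0.27) had an adjusted p of 0.067 in edgeR. Fanci was at 6.55, 12.8 and 6.71 CPM in Bap1LysM BMMs and at 8.26 and 7.26 CPM in those preOCs (log2 -0.16, SE 0.35, edgeR adjusted p = 0.78). Its preOC values lay inside the BMM range. Xpc, in contrast, went from 59.4, 47.2 and 61.5 to 28.7 and 16.4 CPM (SE 0.27, edgeR adjusted p = 0.028).

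Whether the RANKL response differed between genotypes was tested as an interaction over the 11 libraries numbered 1 to 3. In edgeR, 0 of 50 members passed, as did 0 of all 13635 genes (0%), with 22 members and 1718 genes at an unadjusted p under 0.05. The estimates were negative for 44 of 50 members. Their median was -0.74 in the recombination and Fanconi genes, -0.21 in the mismatch, excision and end-joining genes and 0.04 over all genes. For Brca1 the interaction was -1.01 (SE 0.30, edgeR adjusted p = 0.33), for Bard1 -1.24 (SE 0.38, edgeR adjusted p = 0.34), and for Chek1 -1.41 (SE 0.37, edgeR adjusted p = 0.33). DESeq2 passed 1 member, Chek1, and 113 genes in all. A fit of all 17 libraries passed 13 members, all negative, 10 of them recombination or Fanconi genes, and 2.10% of all genes, but its preOC libraries numbered 4 to 6 have no matching BMMs. Without both Bap1LysM libraries numbered 1, the Bap1LysM preOC group held 1 library, so only the estimate is given. The recombination and Fanconi median was then -0.79. For the 4 nucleotide excision genes the estimates were positive, from 0.05 to 0.39.

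After RANKL, 12 of the 50 members were lower in Bap1LysM preOCs than in Bap1flox preOCs and 0 were higher (edgeR, 5 against 6 libraries). Of all 12919 genes tested, 15.8% passed, 7.12% being higher and 8.67% lower. The 12 comprised 8 recombination genes, 2 Fanconi genes, Msh6 and Parp1. That made 10 of 31 recombination and Fanconi genes and 2 of 15 mismatch, excision and end-joining genes. The medians of the log2 fold change, -0.32 and -0.24, were closer than the counts, and the median over all genes was -0.01.

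Rad51c, a recombinase paralog that acts with BRCA2 in strand exchange, showed the largest difference. It ranged from 2.92 to 3.63 CPM in Bap1flox preOCs (median 3.28) and was at 1.96, 1.52, 1.13, 1.14 and 1.64 CPM in Bap1LysM libraries 1, 2, 4, 5 and 6. Every Bap1LysM library lay below every Bap1flox library (log2 -1.17, SE 0.19, edgeR adjusted p = 0.0022). Fanci, which the core complex ubiquitinates together with FANCD2, ranged from 9.49 to 12.8 CPM (median 10.7) against 8.26, 7.26, 5.84, 6.32 and 5.75. These ranges were also apart (log2 -0.72, SE 0.14, edgeR adjusted p = 0.0052), although 14.8% of the exonic sequence of Fanci overlaps Polg on the opposite strand. Blm, the helicase that dissolves crossed strands, ranged from 15.6 to 18.6 CPM (median 17.5) against 12.8, 10.3, 10.7, 11.8 and 14.7. Its log2 fold change was -0.55 (SE 0.11, edgeR adjusted p = 0.0056). Parp1 ranged from 154 to 179 CPM (median 170.0) against 146, 142, 126, 121 and 127, with no overlap (log2 -0.38, SE 0.08, edgeR adjusted p = 0.011). Rad51c, Fanci, Blm and Parp1 passed with any 1 of the 11 libraries left out.

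The other 8 members were nearer the threshold. Brca1 ranged from 43.6 to 53.4 CPM in Bap1flox preOCs (median 46.7) against 37.2, 43.5, 40.1, 35.7 and 42.7. The ranges were apart by a narrow margin, and the difference was 1.21-fold (log2 -0.28, SE 0.08, edgeR adjusted p = 0.036). Brca2 ranged from 10.7 to 13.1 CPM (median 11.1) against 10.2, 9.42, 5.95, 6.56 and 8.39, also without overlap (log2 -0.55, SE 0.16, edgeR adjusted p = 0.038). For Bard1 the values were 14.9 to 20.7 CPM (median 16.5) against 14.2, 15.4, 10.3, 11.2 and 10.5. Its ranges overlapped through Bap1LysM library 2 (log2 -0.50, SE 0.14, edgeR adjusted p = 0.038).

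Rad54l ranged from 32.7 to 41.3 CPM (median 36.9) against 29.7, 36.8, 23.7, 23.5 and 22.0 (log2 -0.47, SE 0.14, edgeR adjusted p = 0.045). Exo1 ranged from 14.2 to 20.4 CPM (median 15.7) against 14.6, 13.5, 10.6, 9.39 and 10.6 (log2 -0.50, SE 0.15, edgeR adjusted p = 0.04). Eme1, a subunit of a nuclease that resolves joined molecules, ranged from 11.6 to 14.4 CPM (median 12.4) against 9.90, 11.8, 6.55, 7.36 and 9.66 (log2 -0.53, SE 0.16, edgeR adjusted p = 0.041). In each of these 3 genes, Bap1LysM libraries 4 to 6 lay below all Bap1flox libraries, and 1 library of the pair numbered 1 and 2 reached into their range. Eme1 overlaps other exons over 10.7% of its length. Fancg, of the core complex, ranged from 17.2 to 25.6 CPM (median 20.4) against 16.8, 17.5, 14.4, 14.1 and 11.3 (log2 -0.51, SE 0.15, edgeR adjusted p = 0.037). Msh6, which recognises mismatched bases, ranged from 38.5 to 48.7 CPM (median 44.4) against 39.7, 32.2, 30.9, 29.0 and 41.1 (log2 -0.37, SE 0.11, edgeR adjusted p = 0.043). For Msh6, Bap1LysM libraries 1 and 6 lay within the Bap1flox range.

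In all, the genotype ranges did not overlap for 6 of 50 members, Rad51c, Fanci, Blm, Parp1, Brca1 and Brca2, with the share at 9.48% over all genes tested.
Of the 38 members that did not pass, 12 had positive estimates. The highest were Chek2 at 0.50 (SE 0.17, edgeR adjusted p = 0.066) and Rbbp8, which starts the cutting back of ends, at 0.43 (SE 0.15, edgeR adjusted p = 0.076). Chek2 ranged from 17.7 to 28.2 CPM (median 21.6) in Bap1flox preOCs against 25.4, 22.4, 33.3, 37.9 and 40.9, and Rbbp8 from 25.6 to 37.9 (median 30.7) against 33.8, 31.7, 43.8, 51.3 and 53. Within each library set, every Bap1LysM library exceeded every Bap1flox library for both genes. Usp1, Rad50 and Xrcc6, the most abundant Fanconi, recombination and end-joining genes, did not pass either. Usp1 ranged from 69.2 to 104 CPM (median 87.7) in Bap1flox preOCs against 71.4, 76.2, 85.6, 89.3 and 117 in Bap1LysM preOCs, with a log2 fold change of -0.00 (SE 0.14). Rad50, of the complex that senses breaks, ranged from 49.2 to 79.6 CPM (median 59.0) against 57.0, 50.2, 64.8, 66.1 and 88.5 (log2 0.06, SE 0.16). Xrcc6, the smaller Ku subunit, ranged from 27.6 to 36.3 CPM (median 31.4) against 21.3, 27.7, 28.0, 26.3 and 34.3 (log2 -0.24, SE 0.11, edgeR adjusted p = 0.18). All 3 overlapped between genotypes.

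The preOC count depended on the library set and on single libraries, as did the share of all genes called. With the library set as a term, 25 members were lower and 3 (Chek2, Prkdc and Rbbp8) higher, while 33.6% of all genes passed. Within libraries 4 to 6, 25 were lower and 2 higher, with 32.3% of all genes. Within libraries 1 to 3, 3 against 2, 0 members and 0 genes passed in edgeR (12 members at an unadjusted p under 0.05). The replicate number as a block gave 24 lower and 3 higher, with 32.8% of all genes. Leaving out Bap1LysM library 1 gave 19 lower and 2 higher members with 23.9% of all genes, and leaving out Bap1LysM library 2 gave 16 lower and 2 higher with 21.5%. Leaving out Bap1flox library 1, 2 or 3 gave 4 members each time, with 11.2%, 11.3% and 11.5% of all genes, and leaving out Bap1LysM library 4 or 5 also gave 4, with 8.58% and 8.69%. Leaving out Bap1flox library 4 or 5 gave 5, with 11.7% and 10.3%, and leaving out Bap1LysM library 6 gave 6, with 11.6%.

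**Figure D2:**
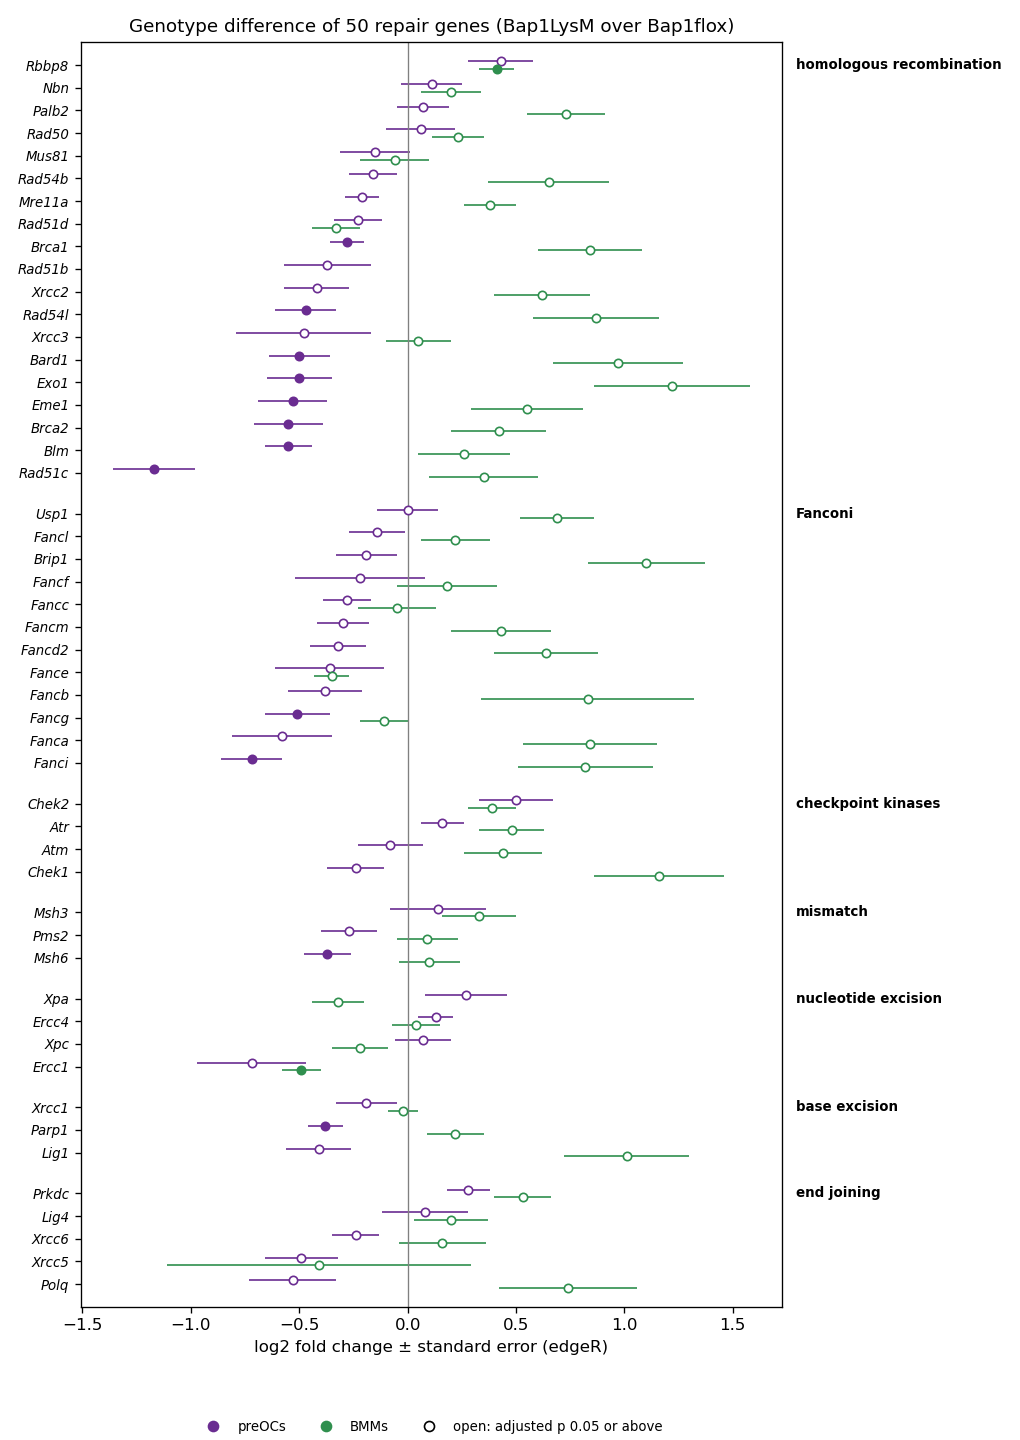
Log2 fold change of each member between genotypes (horizontal axis, ± standard error from edgeR; Bap1LysM over Bap1flox) in preOCs (purple) and BMMs (green), grouped by role, with filled points for an adjusted p under 0.05. In preOCs 12 points are filled, all left of 0; in BMMs 39 of 49 points lie right of 0 and 2 are filled.

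Without RANKL the differences mostly had the opposite sign. In BMMs 49 members were tested, and 1 was higher and 1 lower in Bap1LysM (edgeR, 3 against 3 libraries), against 5.32% of all 13028 genes tested. Rbbp8 was at 25.3, 26.6 and 24.9 CPM in Bap1flox and 32.8, 35.2 and 35.3 in Bap1LysM BMMs. It thus lay higher in every Bap1LysM library (log2 0.41, SE 0.08, edgeR adjusted p = 0.041). Ercc1 was at 23.8, 25.0 and 24.3 CPM against 16.3, 17.6 and 18.6, lower in every Bap1LysM library (log2 -0.49, SE 0.09, edgeR adjusted p = 0.037). Neither call held with every library left out in turn: Rbbp8 passed in 0 of 6 such fits and Ercc1 in 1.

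Positive estimates were found for 25 of 30 recombination and Fanconi genes (median log2 fold change 0.43) and for 10 of 15 mismatch, excision and end-joining genes (median 0.10), with a median over all genes of -0.01. The highest were Exo1 (1.22, SE 0.36, edgeR adjusted p = 0.095), Chek1 (1.16, SE 0.30, edgeR adjusted p = 0.072), Brip1, a helicase partner of BRCA1 (1.10, SE 0.27, edgeR adjusted p = 0.064), and Lig1 (1.01, SE 0.29, edgeR adjusted p = 0.088). Genotype ranges did not overlap for 23 of the 49 members, where the share was 34.0% over all genes tested. The same-numbered BMM libraries deviated together from their group means (correlations of 0.49, 0.30 and 0.34). With the replicate number as a block, 16 members were higher and 1 lower, and 16.2% of all genes passed. Of the 16, 12 were recombination or Fanconi genes, Brca1 (log2 0.80, edgeR adjusted p = 0.024) and Bard1 (log2 0.94, edgeR adjusted p = 0.023) among them. Bap1LysM BMM library 2 was the highest of the Bap1LysM BMMs for Brca1, Bard1, Exo1, Chek1 and Lig1. Without it the median of the recombination and Fanconi genes was 0.31, and 0 members and 0.645% of all genes passed. Without Bap1LysM BMM library 1 the median was 0.46, and 0 members and 2.82% of all genes passed.

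For 2 members, Brca1 and Fanci, all Bap1LysM BMM libraries lay above and all Bap1LysM preOC libraries below the Bap1flox libraries of the same stage. Over all 12418 genes tested at both stages, 0.266% showed this pattern and 0.121% the reverse one. Brca1 was at 19.4, 29.6 and 16.1 CPM in Bap1LysM BMMs, all above the highest Bap1flox BMM of 13.8. Fanci was at 6.55, 12.8 and 6.71 CPM in Bap1LysM BMMs, all above the highest Bap1flox BMM of 5.85. The interaction of neither gene passed (edgeR adjusted p = 0.33 for Brca1 and 0.34 for Fanci).
Rbbp8 and Chek2 had positive estimates at both stages, and Ercc1 and Fance negative ones (in preOCs, Ercc1 at -0.72 with SE 0.25 and Fance at -0.36 with SE 0.25). The comparisons share libraries, so these values are not independent.

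**Figure D3:**
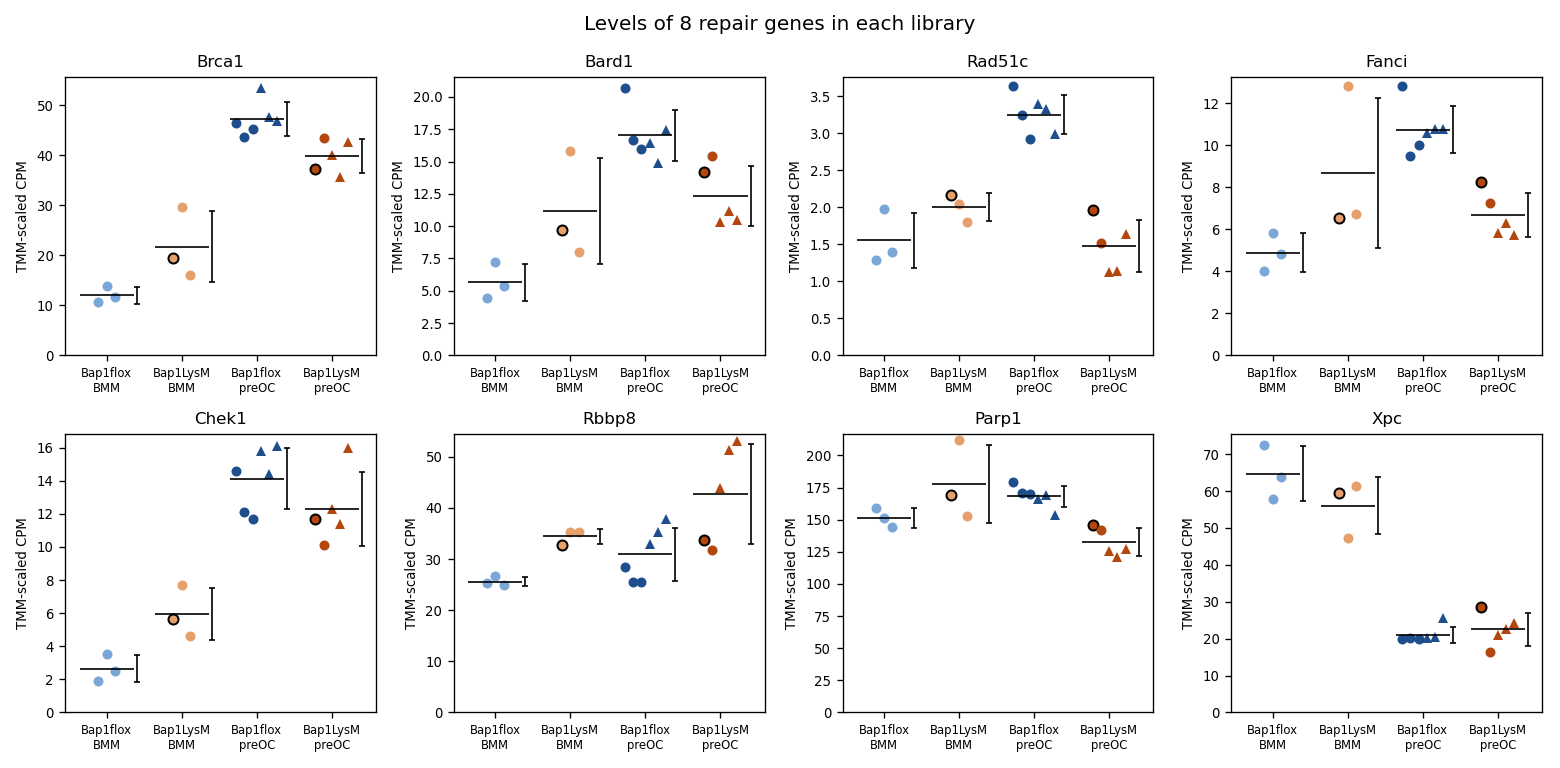
TMM-scaled CPM (vertical axis, from 0) of 8 members in each library; circles are libraries 1 to 3, triangles 4 to 6, black outlines the Bap1LysM libraries numbered 1, lines the group means and bars ± 1 SD. Brca1 and Fanci lie above Bap1flox in Bap1LysM BMMs and below it in Bap1LysM preOCs, and Xpc falls from 57.8 to 72.6 CPM in Bap1flox BMMs to 19.8 to 25.6 CPM in preOCs.

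The 19 recombination genes summed to 203 to 222 CPM in Bap1flox BMMs, 240 to 325 in Bap1LysM BMMs, 346 to 397 in Bap1flox preOCs and 322 to 376 in Bap1LysM preOCs. The 12 Fanconi genes summed to 130 to 146, 156 to 225, 223 to 264 and 192 to 225 CPM in the same order. The 15 mismatch, excision and end-joining genes summed to 450.0 to 470.0 CPM in Bap1flox BMMs, 478 to 609 in Bap1LysM BMMs, 521 to 597 in Bap1flox preOCs and 433 to 513 in Bap1LysM preOCs. Over all preOCs the sum of the 31 recombination and Fanconi genes was 573 to 643 CPM in Bap1flox and 514 to 601 CPM in Bap1LysM, which overlap. Within the library sets it did not overlap: libraries 1 to 3 had 642, 573 and 573 CPM in Bap1flox against 546 and 559 in Bap1LysM, and libraries 4 to 6 had 643, 623 and 635 against 514, 530.0 and 601. The sum of the 15 genes did not overlap over all preOCs, and that rested on Parp1: the 14 genes without Parp1 summed to 358 to 418 CPM in Bap1flox and 311 to 368 CPM in Bap1LysM preOCs, which overlap. The difference between the sums was not tested. Of all the groups, Bap1flox preOCs had the highest mean of each sum. The 48 proliferation genes, which drive DNA replication and mitosis, summed to 1690 to 2310 CPM in Bap1flox BMMs, 2550 to 4300 in Bap1LysM BMMs, 4400 to 5260 in Bap1flox preOCs and 3370 to 3980 in Bap1LysM preOCs. The preOC sums of the genotypes did not overlap. In Bap1LysM preOCs 25 of the 48 genes were lower, with 8.67% of all genes tested. All 48 estimates were negative, with a median of -0.43. In BMMs all 48 estimates were positive with a median of 0.68, and 0 passed in edgeR. There, 26 were at an unadjusted p under 0.05, with 3416 of all 13028 genes. When a proliferation score per library entered the preOC model as a covariate, 0 members and 0 of all genes passed in edgeR, and 0 members were at an unadjusted p under 0.05. Because the sums of the genotypes do not overlap, score and genotype cannot be told apart in this fit, and standard errors grew. The median log2 fold change of the recombination and Fanconi genes was then 0.11, that of the mismatch, excision and end-joining genes 0.02, and Rad51c was at -0.49 (SE 0.42). In bulk RNA, fewer dividing cells and less repair mRNA per cell cannot be told apart.

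**Figure D4:**
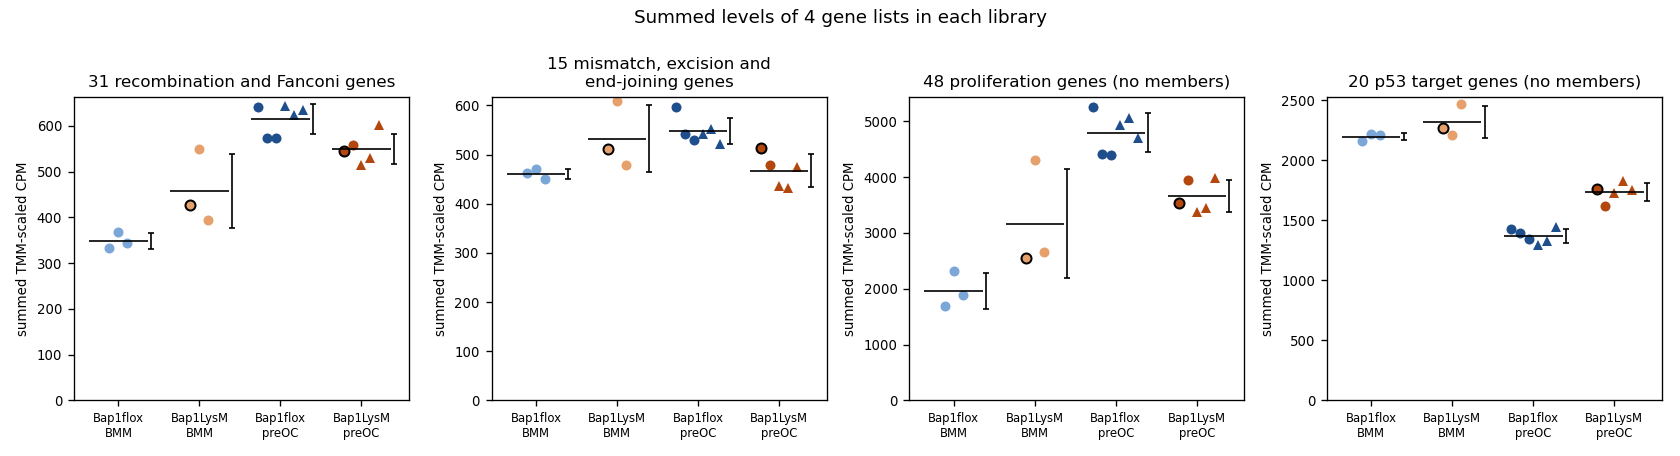
Summed TMM-scaled CPM (vertical axis, from 0) of 4 gene lists in each library, with the symbols, means and SDs as in the plot of single genes. The 15-gene sum (which includes Parp1), the proliferation sum and the p53 target sum separate the genotypes in preOCs, while the 31-gene sum overlaps over all preOCs (573 to 643 against 514 to 601) and not within libraries 1 to 3 or 4 to 6. The recombination and Fanconi sum and the proliferation sum are higher in preOCs than in BMMs of Bap1flox, and the p53 target sum is lower. Without Cdkn1a and Ccng1 the p53 target sums of the genotypes overlap over all preOCs, but not within libraries 1 to 3 or 4 to 6.

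Other cell types were read from marker lists. Neutrophil markers, led by Ngp and S100a9, summed to 61.4 to 179 CPM in Bap1flox preOCs. In Bap1LysM preOCs they summed to 170 and 173 in libraries 1 and 2 and to 448 to 614 in libraries 4 to 6. Of 7 tested markers 6 were higher, with 7.12% of all genes, and Ly6g was under 1 CPM in every library. Progenitor markers such as Prtn3, Kit and Cd34 summed to 5.35 to 10.4 CPM in Bap1flox and 12.2 to 27.3 in Bap1LysM preOCs, and to 6.02 to 15.2 and 23.1 to 27.3 in BMMs. Among B and plasma cell markers Cd79a, Ms4a1 and Mzb1 were under 1 CPM throughout, as were all 7 erythroid markers, while the other 3 genes of the B and plasma cell list moved in different directions. Jchain was higher in Bap1LysM at both stages (log2 4.01 in preOCs and 3.07 in BMMs). Ighm was higher in preOCs (log2 1.34, edgeR adjusted p = 0.049) and at -0.53 in BMMs, where it did not pass. Cd79b was lower in BMMs (log2 -1.05, edgeR adjusted p = 0.036) and at -0.16 in preOCs, where it did not pass. Stromal markers, mainly collagens, ran from 96.4 to 2690 CPM between libraries and passed for 0 of 6 genes in preOCs and 0 of 5 in BMMs (edgeR, 1 and 0 at an unadjusted p under 0.05), though all estimates were negative, with medians of -0.94 and -1.1. The part of these cells in the repair genes was not tested.

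The rest of the repair pathways was read from 95 further genes. In Bap1flox, RANKL raised 43 and lowered 18 of them (median log2 0.19). That is 64.2%, near the 64.6% of all genes. They included rises of Dna2, a nuclease of end processing (1.67), and Rif1, which protects ends (1.53), together with a fall of Dclre1c, the Artemis nuclease (-2.09). The 35 further recombination and Fanconi genes had 15 higher and 6 lower, and the 45 further mismatch, excision and end-joining genes 20 higher and 11 lower. In preOCs, 15 of 94 tested were lower and 3 higher in Bap1LysM (19.1%, with 15.8% of all genes), with a median of -0.23. Of 34 recombination and Fanconi genes among them, 7 were lower and 1 higher (median -0.18). Of 45 mismatch, excision and end-joining genes, 6 were lower and 2 higher (median -0.26). These medians stood in the opposite order to those of the members, -0.32 and -0.24. The lowest of the 94 were the mismatch gene Mlh3 (-1.25, SE 0.22, edgeR adjusted p = 0.004) and the helicase gene Helq (-1.0, SE 0.21, edgeR adjusted p = 0.0088). Base excision glycosylase genes Neil1 (-0.72, SE 0.11, edgeR adjusted p = 0.0023) and Nthl1 (-0.92, SE 0.19, edgeR adjusted p = 0.0074) were also lower. In BMMs 2 of 95 were higher and 2 lower (4.21%, with 5.32% of all genes), and in Bap1LysM cells RANKL raised 7 and lowered 2 of 94 (9.57%, with 19.6% of all genes).
Of 15 checkpoint mediators, Clspn (-0.53) and Tipin (-0.49), which hold CHK1 signalling at the fork, were lower in Bap1LysM preOCs, which is 13.3% called with 15.8% of all genes. Of 19 tested p53 target genes, 2 were higher in these preOCs, Ccng1 (0.66, SE 0.15, edgeR adjusted p = 0.012) and Eda2r (1.14, SE 0.35, edgeR adjusted p = 0.046), and 0 lower, which is 10.5% called with 15.8% of all genes. The 20 targets summed to 1290 to 1440 CPM in Bap1flox and 1620 to 1830 CPM in Bap1LysM preOCs, without overlap. Over all preOCs that separation rested on Cdkn1a and Ccng1, since the other 18 summed to 833 to 927 and 917 to 988 CPM, which overlap. Within the library sets the sums of these 18 did not overlap. Libraries 1 to 3 had 859, 864 and 840 CPM in Bap1flox against 978 and 917 in Bap1LysM. Libraries 4 to 6 had 833, 859 and 927 CPM against 974, 986 and 988. Cdkn1a, which encodes the p53-induced cell cycle inhibitor p21, did not pass. It was named after its values were seen: 525, 446, 409, 444 and 345 CPM in Bap1LysM preOCs and 222 to 397 CPM in Bap1flox preOCs.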

How the data were processed

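Poly(A) RNA-seq of 17 mouse cultures was analysed. The authors aligned reads with STAR 2.5.1a to GRCm38 and counted them per gene with featureCounts 1.4.6-p5 and Ensembl release 76. Whether strand was used was not stated, so 10 members whose exons overlap another gene over more than 5% of their length may share reads with it. The deposited files hold raw counts, CPM and RPKM per gene. The deposited CPM values, used here for Bap1, are counts scaled to the library total, and the deposited RPKM values are that CPM per kilobase, from which gene lengths were taken.

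The 50 members, the other gene lists and the tests were chosen with earlier results of these data known. Groups came from the labels. The study describes the preOC samples as biologically independent. For the BMMs no source used here says whether libraries came from separate mice, so their p-values measure the spread between these libraries. After 355 ribosomal RNA genes were left out, counts were tested with edgeR 4.0.16 (TMM factors, glmQLFit and glmQLFTest, R 4.3.3) over all genes whose CPM exceeded 1 in a minimum number of libraries (4 of 11 preOCs, 2 of 6 BMMs, 2 of 6 and 2 of 5 for the RANKL responses, 2 of 11 for the interaction). P-values were two-sided and adjusted by Benjamini-Hochberg, with a threshold of 0.05. SE is the standard error of the log2 fold change. Library values are TMM-scaled CPM over all 17 libraries. The RANKL responses used libraries 1 to 3.

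Per-library values were given for Brca1, Bard1, members called between genotypes, the 4 largest rises and falls after RANKL in Bap1flox and the most abundant member of each role (both kinds of excision repair as 1 role), and up to 3 called genes per further list. Alternatives were DESeq2 1.42.0, limma 3.58.1 (voomWithQualityWeights), other scaling factors and filters, a replicate block, 1 fit of all libraries, the library set as a term, each set alone, a proliferation covariate and leaving out each library. Same-numbered libraries deviated together, with correlations of 0.30 to 0.49 in BMMs, 0.22 to 0.48 in the RANKL responses and 0.34 to 0.69 in preOCs. Within preOC libraries 1 to 3 they were 0.40 and 0.32, and within libraries 4 to 6 -0.14 to 0.01. On simulated data with 200 changed genes among 12919, the preOC test recovered 82% of 2-fold and 100% of 4-fold changes. The BMM test recovered 49% and 99% among 13028 genes, and the Bap1flox RANKL test 38% and 100% among 13412. The simulated coefficient of variation was the same for every gene and test, and library sets were not simulated. It lay below the common value fitted in preOCs (0.274). It lay above those fitted in BMMs (0.207) and in the Bap1flox RANKL response (0.166). These shares therefore do not measure recovery in the data. No replicate library matched another within counting noise. Intervals for shares of counts were not used. Promoters are from RefSeq (GRCm38.p6).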

Additional observations from a re-analysis of the deposited data

Results flagged for a closer look

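In each group of 4 to 10 libraries, the gap of the highest or lowest library to its nearest neighbour was compared with the group's range. Of 100 such comparisons over the members, 4 passed Dixon's 95% critical value, where chance gives about 1 in 20. All 4 were among the Bap1flox preOCs: Exo1 was highest in library 1 at 20.4 CPM, Pms2 lowest in library 3 at 12 CPM, Xpa highest in library 6 at 10.7 CPM and Xpc highest in library 6 at 25.6 CPM. Libraries 1 to 3 and 4 to 6 of this group also differ in their mitochondrial share, and its part in these values was not tested.

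Brca1 and Fanci were higher in every Bap1LysM BMM library and lower in every Bap1LysM preOC library than in the Bap1flox libraries of the same stage. The interaction estimates were -1.01 for Brca1 and -1.30 for Fanci on the log2 scale, and neither passed the test of the difference (edgeR adjusted p = 0.33 and 0.34). Both Bap1LysM preOC libraries in that fit, numbered 1 and 2, lay below all Bap1flox preOC libraries for these genes.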

How the results depend on the processing

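The number of members called moved with the processing, as did the share of all genes called, given here in parentheses. In preOCs it was 12 (15.8%), and it was 19 with DESeq2 (22.5%), 35 with limma voomWithQualityWeights (54.9%), 7 with no filter (6.07%), 27 with the replicate number as a block (32.8%), 28 with the library set as a term (33.6%), 29 with that term and without Bap1LysM library 1 (39.0%, an alternative chosen after seeing the data), 0 in libraries 1 to 3 (0%), 27 in libraries 4 to 6 (32.3%), and 4 to 21 with 1 library left out (8.58% to 23.9%). With the proliferation score as a covariate it was 0 (0%), the recombination and Fanconi median was 0.11 and that of the mismatch, excision and end-joining genes 0.02, and the estimates of Bard1 (0.11), Brca2 (0.03), Eme1 (0.34), Exo1 (0.17), Msh6 (0.07) and Rad54l (0.12) were positive with standard errors of 0.26 to 0.36. The proliferation sums do not overlap between the genotypes, so score and genotype cannot be told apart there. In BMMs the count was 2 (5.32%), and it was 16 with DESeq2 (15.9%), 11 with voomWithQualityWeights (13.6%), 17 with the block (16.2%), 10 with all 17 libraries in 1 fit (5.13%) and 0 to 2 with 1 library left out (0.0307% to 5.80%), when the median of the mismatch, excision and end-joining genes ran from 0.01 to 0.22. The RANKL response in Bap1flox had 36 to 42 members called in every setting, and with 1 library left out 6 members lost their call in some fits: Ercc1, Xrcc5, Nbn, Parp1, Fancl and Fancc. Its recombination and Fanconi median was 0.86 with voomWithQualityWeights, and its other median was 0.35 with that tool, 0.33 with CPM above 1 in every library, 0.52 with all 17 libraries and 0.37 to 0.48 with 1 left out. In Bap1LysM the count was 10 with DESeq2 (30.7%), 3 with voomWithQualityWeights (12.8%), 16 with all 17 libraries (49.5%) and 0 to 5 with 1 left out (0.492% to 27.1%), when the mismatch, excision and end-joining median ran from 0.01 to 0.24. For the interaction it was 1 with DESeq2 (0.829%) and 13 with all 17 libraries (2.10%). The recombination and Fanconi median of the interaction was -0.85 to -0.53 with 1 library left out, and the other median -0.06 with voomWithQualityWeights, -0.34 with the block and -0.23 to -0.09 with 1 left out. The cause of these shifts was not tested. Depth was similar between groups, and the spread between 2 to 6 libraries limited precision.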
